A study of Rattus norvegicus with 6 samples.

Results

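Of the 23091 genes listed in the count table, 40 belong to 4 systems of axon guidance cues: the ephrins with their Eph receptors, the Slits with their Robo receptors, the netrins with their receptors, and draxin. They were taken by symbol: the Eph receptor genes Epha and Ephb, the ephrin genes Efna and Efnb, Slit1 to Slit3, Robo1 to Robo4, the netrin genes Ntn1, Ntn3, Ntn4 and Ntn5, Unc5a to Unc5d, Dcc, Neo1 and Draxin. By role they are 16 ligands and 24 receptors. Messenger RNA was read in wild-type rat mesenchymal stem cells from marrow, the adherent stromal cells of bone marrow, after 7 days in neural differentiation media. DMSO, the solvent, was given to the 3 CK samples. The 3 CYSP samples had the treatment called CYSP, a name left unexplained in the labels. The comparison asks which genes differ in treated marrow cells under neural differentiation conditions. The labels do not say whether the replicates are separate cultures or animals, so the p-values reflect only how far these samples spread, and that spread may be technical.

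Guidance cues steer growing axons and migrating cells by attraction or repulsion. Ephrins are membrane-bound and act at cell contacts, ephrin-A through a lipid anchor and ephrin-B as transmembrane proteins, and both signal into the receptor-bearing cell and back into their own. Slits are secreted repellents read by Robo receptors, netrin-1 attracts through Dcc and repels through Unc5 receptors, and draxin is a secreted repellent that binds Dcc and netrin-1. The same genes also act outside the nervous system, in blood vessels and in bone, where ephrin-B signals pass between bone-forming and bone-resorbing cells.

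Total counts per sample lay between 15060933 and 17244700. A count of 0, which allows up to 3 counts, corresponded to at most 0.205 CPM (depth-scaled counts, with the TMM factors of edgeR). This limit covers counting error only. All 7 marrow stromal markers were detected in both groups, with a summed level of 4057 to 4125 CPM in CK and 2948 to 3011 CPM in CYSP. Of these 7, 4 rose (Thy1, Cd44, Nt5e and Eng) and 3 fell (Itgb1, Pdgfrb and Vcam1). The most abundant of the list in both groups, Itgb1, had a mean of 2537 CPM in CK and 1297 CPM in CYSP. Markers of other cells moved with the groups. The 12 macrophage and leukocyte markers summed to 1756 to 1986 CPM in CK and 620.0 to 631 CPM in CYSP, and 9 of them fell while 1 rose. The 7 mural and smooth muscle markers went from 8016 to 8222 CPM down to 16.5 to 23.4 CPM, with 6 of 6 tested lower. Endothelial markers summed to 12.0 to 13.5 CPM in CK and 8.88 to 9.66 CPM in CYSP, with Emcn at 0 and Pecam1 and Cdh5 at no more than 5 counts in a sample. Of the 5 endothelial markers tested 2 rose (Kdr and Vwf) and 2 fell (Tek and Tie1). The neuronal list rose in sum from 14.2 to 14.9 CPM up to 87.0 to 91.1 CPM. Of its 4 tested genes 2 rose (Snap25 and Tubb3) and 2 fell (Map2 and Dcx), while Rbfox3 and Elavl4 had no count. Snap25 had 1 count in all CK samples and 2236 in all CYSP samples. The mean of Tubb3 was 8.67 CPM in CK and 37.8 CPM in CYSP. The glial list summed to 7.5 to 8.03 CPM in CK and 12.6 to 13.6 CPM in CYSP. Of its 2 tested genes 1 rose (S100b), and Aqp4 had no count. What part these lists have in the values below was not tested, and in bulk RNA fewer cells of a type and less RNA per cell cannot be told apart.

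Every guidance system changed in CYSP, and within several families one member rose while its close relative fell. Draxin went from almost no counts to 103 CPM, Efna3 rose 26.3-fold, Robo1 10.9-fold and Ntn1 7.54-fold, whereas Epha3 fell 14.2-fold and Efnb1 3.98-fold. Of the 40 genes, 26 passed the filter on low counts, 8 stayed under it and 6 had no count in any sample. In the quasi-likelihood test of edgeR, adjusted by Benjamini-Hochberg over all 12623 genes tested, 14 of the 26 rose, 11 fell and 1 did not pass the threshold of 0.05. The background is high: 76.1% of all tested genes passed in either direction, 38.2% higher and 37.8% lower. At least 2-fold changes were called in 20 of the 26 (12 higher and 8 lower), beside 27.8% of all tested genes (15.2% higher and 12.7% lower). The median absolute log2 fold change was 1.45 among the 26 and 0.53 over all tested genes. The CPM of the 2 groups did not overlap in 25 of the 26, and in 77% of all tested genes. A gene that is high in only 1 group can pass the filter through that group alone, so these counts describe the tested genes and not all 40. This bears on Draxin and Efna3, with 16 and 31 counts over the CK samples, and on Epha1, with 21 counts over the CYSP samples. By role, 9 of 12 tested ligands rose and 2 fell (median log2 change 1.35). Of 14 tested receptors 5 rose and 9 fell (median -0.63). At an adjusted p under 0.05 the authors' deposited table held 14 of the 40 as higher and 12 as lower, and 25 were called in the same direction in both.

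**Figure D1:**
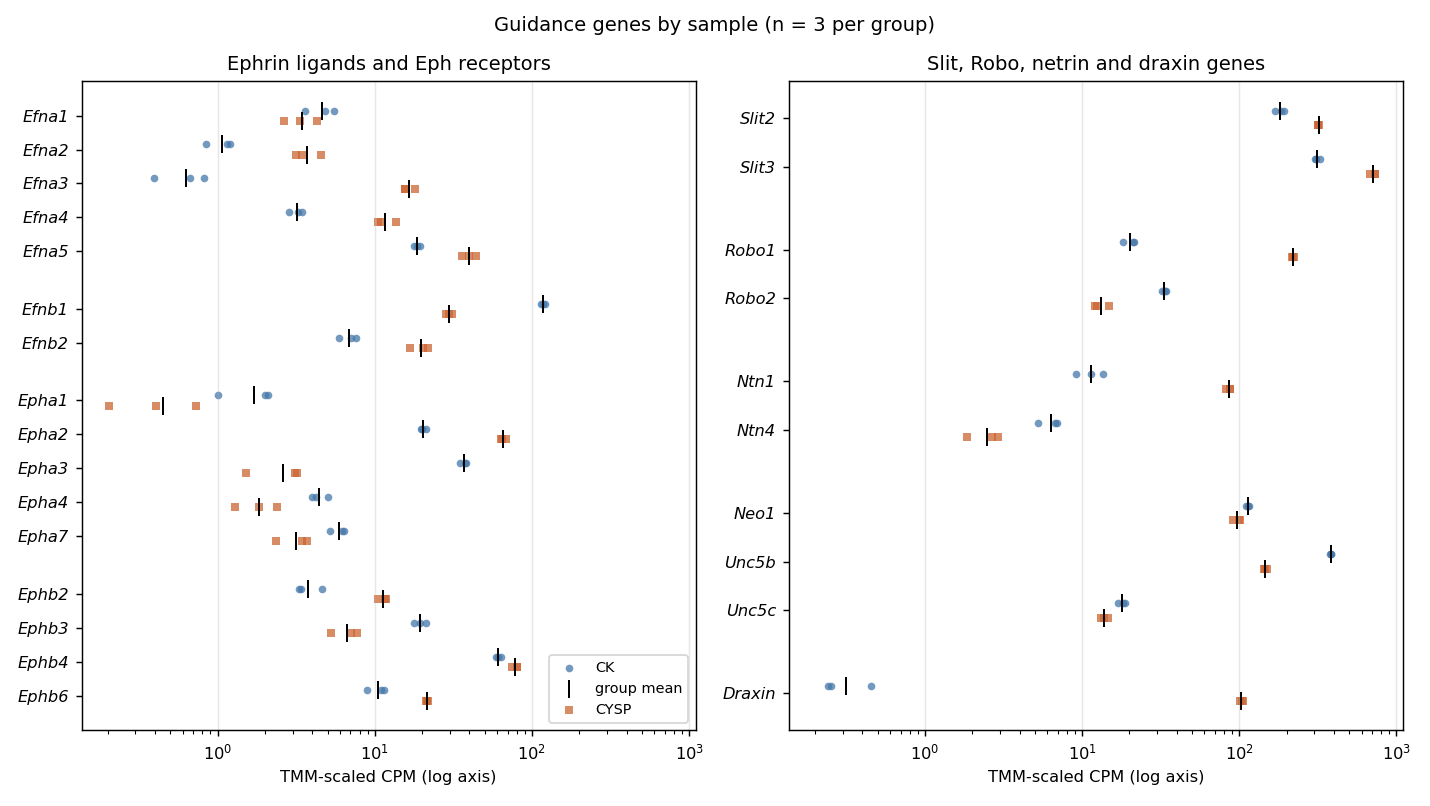
TMM-scaled CPM of the 26 tested guidance genes in each of the 3 CK samples (circles) and 3 CYSP samples (squares), on a log axis, with a black tick at each group mean. Draxin sits between 0.242 and 0.451 CPM in CK and between 101 and 105 CPM in CYSP, and only the Efna1 points of both groups overlap.

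The stretches of DNA around the annotated starts of Draxin, which had the largest fold change of the 26, and of the leading members of the EphA and Robo families are shown because in both receptor families one leading gene rose while the other fell. RefSeq windows of 300 bases (250 before and 50 after the start, build GRCr8) were matched by symbol for 33 of the 40 genes, with 35 windows in all. Which start was used in these samples was not measured. Windows are printed 5′ to 3′ on the gene's strand. Capitals mark matches on either strand to GGAATG, the core recognised by TEAD factors of the Hippo pathway, to ACGTG, the core of hypoxia response elements, and to GGGCGG, the GC box. No match of one motif overlapped a match of another in these windows.
Draxin, first start (chr5:163846560-163846859, minus strand): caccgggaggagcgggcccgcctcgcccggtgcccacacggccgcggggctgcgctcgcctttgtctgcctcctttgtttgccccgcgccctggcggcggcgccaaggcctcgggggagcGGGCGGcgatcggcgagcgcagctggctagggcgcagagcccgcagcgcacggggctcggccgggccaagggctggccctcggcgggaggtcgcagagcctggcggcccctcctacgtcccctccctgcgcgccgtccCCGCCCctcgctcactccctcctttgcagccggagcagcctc
Draxin, second start (chr5:163836813-163837112, minus strand): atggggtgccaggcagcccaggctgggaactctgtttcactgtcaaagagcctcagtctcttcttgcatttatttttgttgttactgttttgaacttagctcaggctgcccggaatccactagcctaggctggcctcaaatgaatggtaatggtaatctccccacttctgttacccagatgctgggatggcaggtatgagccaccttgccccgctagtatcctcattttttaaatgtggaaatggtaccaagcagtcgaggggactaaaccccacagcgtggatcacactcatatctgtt
Robo1, first start (chr11:24067706-24068005, plus strand): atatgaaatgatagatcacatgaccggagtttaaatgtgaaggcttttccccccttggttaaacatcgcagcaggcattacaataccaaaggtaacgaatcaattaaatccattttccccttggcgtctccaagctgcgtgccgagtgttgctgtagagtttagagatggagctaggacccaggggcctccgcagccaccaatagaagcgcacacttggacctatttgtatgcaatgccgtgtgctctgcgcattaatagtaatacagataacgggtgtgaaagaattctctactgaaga
Robo1, second start (chr11:24714445-24714744, plus strand): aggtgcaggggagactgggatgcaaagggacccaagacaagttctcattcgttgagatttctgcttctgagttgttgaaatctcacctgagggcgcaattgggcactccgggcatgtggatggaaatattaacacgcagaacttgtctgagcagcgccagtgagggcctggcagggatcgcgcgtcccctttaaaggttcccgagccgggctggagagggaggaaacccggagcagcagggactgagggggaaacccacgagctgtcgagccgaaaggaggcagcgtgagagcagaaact
Robo2 (chr11:26526363-26526662, minus strand): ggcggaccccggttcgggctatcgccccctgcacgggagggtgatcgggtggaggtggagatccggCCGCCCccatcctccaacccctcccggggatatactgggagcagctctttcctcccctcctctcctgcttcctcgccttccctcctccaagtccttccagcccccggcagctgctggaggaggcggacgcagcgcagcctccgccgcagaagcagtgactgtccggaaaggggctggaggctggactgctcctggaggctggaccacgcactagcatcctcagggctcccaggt
Epha2 (chr5:158888379-158888678, plus strand): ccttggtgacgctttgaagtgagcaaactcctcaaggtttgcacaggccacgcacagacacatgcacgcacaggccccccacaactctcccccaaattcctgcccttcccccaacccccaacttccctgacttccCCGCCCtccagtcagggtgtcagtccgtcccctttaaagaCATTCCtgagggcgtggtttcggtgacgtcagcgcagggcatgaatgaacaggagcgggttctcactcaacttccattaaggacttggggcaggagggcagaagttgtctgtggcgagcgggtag
Epha3 (chr11:14920376-14920675, minus strand): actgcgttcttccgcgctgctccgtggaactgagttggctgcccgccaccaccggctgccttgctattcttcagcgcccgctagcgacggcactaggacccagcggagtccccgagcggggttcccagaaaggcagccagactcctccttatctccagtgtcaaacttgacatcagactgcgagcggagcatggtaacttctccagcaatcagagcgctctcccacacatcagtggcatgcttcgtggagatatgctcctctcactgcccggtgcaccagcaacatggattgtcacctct

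Of these 7 windows, the first Draxin start held 2 GC boxes, Robo2 held 1, and Epha2 held 1 GC box and 1 TEAD core. The second Draxin window, both Robo1 windows and the Epha3 window held none of the 3 motifs. GC content was 78% in the first Draxin window and 49% in the second, against a median of 51.7% over all 33469 windows of the table. Among all windows 14.2% held the TEAD core, 19.3% the hypoxia core and 33.1% a GC box. Of the 35 windows of guidance genes, 5 held the TEAD core, 7 the hypoxia core and 19 a GC box. Most guidance windows lay above the median GC content, with a range from 44.7% (Epha5) to 81% (Neo1), and the motif counts were not adjusted for it. Windows of rising genes held a GC box in 6 of 14 and those of falling genes in 7 of 9. These are counts of windows and not of genes. Draxin and Robo1 have 2 windows each, and the rising Ntn1 and Slit2 and the falling Epha4 and Unc5c have none. The TEAD core stood in 1 of the 14 and 1 of the 9, and the hypoxia core in 2 of the 14 and 1 of the 9.

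Ephrin-A ligands, which bind mainly EphA receptors, were higher in CYSP in 4 of 5 genes, and the fifth was not called. Over all tested genes 38.2% were higher and 37.8% lower, and no family was tested as a set. Efna3 had 0.395, 0.817 and 0.664 CPM in the CK samples and 18.1, 15.5 and 15.6 CPM in the CYSP samples. It rested on 31 counts in the CK samples together and 757 in the CYSP samples. The groups were far apart, with a log2 fold change of 4.72 (SE 0.206, adjusted p = 2.33e-34 in edgeR). Efna4 rose from 3.44, 2.83 and 3.26 CPM to 13.5, 10.4 and 10.99 CPM (log2 change 1.87 ± 0.162 SE, adjusted p = 1.34e-17 in edgeR). Efna2, at 0.846 to 1.19 CPM in CK and 3.14 to 4.56 CPM in CYSP, had a log2 fold change of 1.81 (SE 0.288, adjusted p = 4.45e-08 in edgeR). Both were higher in every CYSP sample than in any CK sample. The most abundant of the family in both groups, Efna5, had 17.8, 19.4 and 18.6 CPM in CK and 39.7, 35.7 and 44.0 CPM in CYSP, a log2 fold change of 1.1 (SE 0.0811, adjusted p = 5.62e-21 in edgeR). Efna1, the ligand first described for Epha2, had 4.85, 3.58 and 5.50 CPM in CK and 4.31, 2.64 and 3.35 CPM in CYSP. Its groups overlapped, and its log2 fold change of -0.43 (SE 0.211) did not pass (edgeR adjusted p = 0.0586). This gene crossed the threshold without CK replicate 2 (adjusted p = 0.0148 by edgeR) and without CYSP replicate 1 (0.0155), and stood at 0.288 without CYSP replicate 2. Of the 19 alternatives, 2 gave higher values. One tested against a log2 fold change of 1, which asks a different question, and the other assumed a coefficient of variation of 0.4 (0.649 by edgeR). In the RefSeq gene order Efna1, Efna3 and Efna4 follow each other with 0 protein-coding genes between them, so the largest increase of the family and its only gene not called are direct neighbours.

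In the ephrin-B ligands the leading gene differed between the groups. Efnb1, which takes part in skeletal and craniofacial patterning, had 118, 122 and 114 CPM in CK and 28.3, 29.5 and 31.1 CPM in CYSP. It fell by 1.99 on the log2 scale (SE 0.0552, adjusted p = 1.91e-47 in edgeR), with no overlap. Efnb2, best known as the arterial partner of Ephb4, had 7.05, 7.60 and 5.92 CPM in CK and 20.3, 21.8 and 16.7 CPM in CYSP, again with no overlap (log2 change 1.52 ± 0.122 SE, adjusted p = 3.39e-19 in edgeR). Levels of different genes are compared on the deposited FPKM, which scales by transcript length. Per length, Efnb1 stood at 5.69 to 6.84 times Efnb2 in the CK samples and at 0.482 to 0.662 times Efnb2 in the CYSP samples. Efnb3, the third ephrin-B, had 4 counts in all CK and 2 in all CYSP samples, too few for a test.

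EphA receptors fell in 4 of the 5 tested genes, beside 37.8% lower and 38.2% higher over all tested genes. The receptor that rose was Epha2, a receptor with wide expression outside the nervous system. Epha3, a high-affinity receptor for ephrin-A5, had 38.0, 34.8 and 37.3 CPM in CK and 1.52, 3.11 and 3.21 CPM in CYSP. All CYSP samples lay far below all CK samples, with a log2 fold change of -3.83 (SE 0.132, adjusted p = 4.21e-37 in edgeR). Epha2 had 20.03, 21.2 and 19.8 CPM in CK and 68.2, 64.3 and 63.3 CPM in CYSP, and rose by 1.68 on the log2 scale (SE 0.0678, adjusted p = 1.57e-36 in edgeR). In FPKM, Epha2 reached 0.415 to 0.480 times Epha3 in CK and 15.5 to 35.3 times Epha3 in CYSP. The share of Epha2 in the summed EphA FPKM was 26.6% ± 1.78 (SD, n = 3) in CK and 89.3% ± 0.422 in CYSP, while that of Epha3 went from 60.8% ± 1.05 to 4.59% ± 1.78. The summed EphA level itself was 20.2 ± 0.566 FPKM in CK and 18.1 ± 0.566 FPKM in CYSP. The other 3 tested EphA receptors were low in both groups. Epha4, a receptor of motor and cortical axons that also binds ephrin-B, had 4.01 to 5.02 CPM in CK and 1.3 to 2.37 CPM in CYSP (log2 change -1.25 ± 0.245 SE, adjusted p = 4.49e-06 in edgeR). Epha7, a receptor of developing cortex, had 5.15 to 6.34 CPM in CK and 2.37 to 3.69 CPM in CYSP (log2 change -0.89 ± 0.198 SE, adjusted p = 4.64e-05 in edgeR). Epha1, an epithelial receptor, had 1 to 2.09 CPM in CK and 0.205 to 0.729 CPM in CYSP (log2 change -1.89 ± 0.432 SE, adjusted p = 7.28e-05 in edgeR). None of the 3 overlapped between groups. Epha5, a neuronal receptor, had no count in CK and 4, 3 and 1 counts in the CYSP samples, Epha8 had 3 counts in CYSP 1 only, Epha10 had 1 count in CK 3, and Epha6 had none.

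EphB receptors rose in 3 of the 4 tested genes, beside 38.2% higher and 37.8% lower over all tested genes. Ephb4, the venous receptor for ephrin-B2, was the most abundant Eph receptor per length in both groups, at 63.5, 59.3 and 60.5 CPM in CK and 80.0, 75.1 and 80.2 CPM in CYSP. Its change was small but outside the overlap of the groups (log2 change 0.36 ± 0.0521 SE, adjusted p = 3.60e-09 in edgeR). Ephb2, a receptor of commissural axons and of synapses, had 3.27, 3.39 and 4.59 CPM in CK and 11.7, 11.6 and 10.4 CPM in CYSP (log2 change 1.59 ± 0.158 SE, adjusted p = 6.75e-15 in edgeR). Ephb3, which shares many of its roles, moved the other way, from 17.7, 19.4 and 21.3 CPM to 7.65, 7.03 and 5.26 CPM (log2 change -1.54 ± 0.123 SE, adjusted p = 2.62e-19 in edgeR). Per length the ratio of Ephb2 to Ephb3 was 0.228 to 0.281 in CK and 2.00 to 2.59 in CYSP. Ephb6, whose kinase domain is inactive, rose from 8.86 to 11.5 CPM in CK to 21.2 to 21.6 CPM in CYSP (log2 change 1.04 ± 0.106 SE, adjusted p = 1.88e-14 in edgeR). Ephb1 had no count in any sample.

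**Figure D2:**
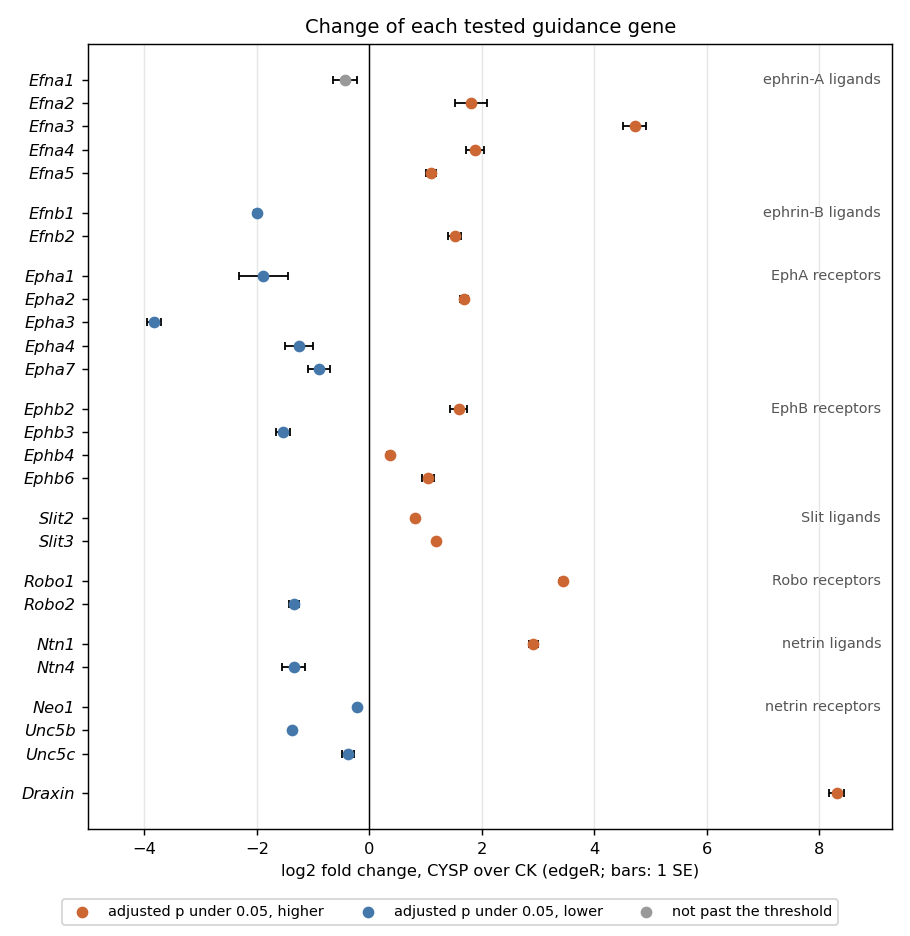
Log2 fold change of CYSP over CK for the 26 tested guidance genes, ordered by family, with bars of 1 SE from edgeR and colours for the call. Ephrin-A ligands and Slits lie to the right of 0 except Efna1 at -0.43, while the ephrin-B, EphA, EphB, Robo and netrin ligand families have members on both sides.

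Both tested Slit ligands rose, beside 38.2% of all tested genes. Slit3, which is made by stromal and bone cells as well as by neural tissue, had 326, 308 and 305 CPM in CK and 726, 684 and 729.5 CPM in CYSP. The samples of each group lay close together and the groups did not overlap (log2 change 1.19 ± 0.0302 SE, adjusted p = 1.09e-49 in edgeR). Slit2, a repellent of the nervous system midline, had 192, 169.5 and 184 CPM in CK and 318, 318 and 324 CPM in CYSP (log2 change 0.81 ± 0.0353 SE, adjusted p = 1.00e-33 in edgeR). Slit1, a Slit of the nervous system, had no count in CK and 1 count in each CYSP sample, under the limit that a count of 0 allows. In FPKM, Slit3 was 2.11 to 2.33 times Slit2 in CK and 2.78 to 2.95 times Slit2 in CYSP, and both were among the 4 most abundant guidance genes in CK and were the top 2 in CYSP.

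The Robo receptors moved in opposite directions. Robo1 had 21.3, 18.2 and 21.1 CPM in CK and 222, 221 and 218 CPM in CYSP, an increase of 3.44 on the log2 scale (SE 0.0519, adjusted p = 7.47e-66 in edgeR). Robo2 had 33.7, 32.1 and 34.2 CPM in CK and 12.1, 14.9 and 12.4 CPM in CYSP (log2 change -1.34 ± 0.0908 SE, adjusted p = 4.64e-23 in edgeR). For neither gene did the groups overlap. Robo1 stood at 0.813 to 0.897 times Robo2 per length in CK and at 18.6 to 25.8 times Robo2 in CYSP. Its share of the summed Robo FPKM went from 46.3% ± 1.28 (SD, n = 3) to 95.7% ± 0.727, and the sum from 6.04 ± 0.339 to 29.7 ± 0.421 FPKM. Robo1 and Robo2 lie on the same chromosome with 1 protein-coding gene between them, and the windows shown are on opposite strands. Robo3, a regulator of commissural axon crossing, and Robo4, the endothelial member, had no count in any of the 6 samples.

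Netrin ligands also changed their leading member. Ntn1, the classical floor-plate attractant, had 11.5, 13.6 and 9.18 CPM in CK and 87.5, 87.5 and 82.3 CPM in CYSP (log2 change 2.91 ± 0.0769 SE, adjusted p = 4.05e-42 in edgeR). Ntn4, a laminin-binding netrin of basement membranes, had 6.71, 6.97 and 5.25 CPM in CK and 2.67, 2.91 and 1.84 CPM in CYSP (log2 change -1.35 ± 0.206 SE, adjusted p = 1.79e-08 in edgeR). Every CYSP sample lay above the CK samples for Ntn1 and below them for Ntn4. The ratio of Ntn1 to Ntn4 in FPKM was 0.598 to 0.683 in CK and 10.6 to 15.7 in CYSP. Ntn3 had 16, 8 and 3 counts in the CK samples and 1, 1 and 2 in the CYSP samples and stayed under the filter, and Ntn5 had no count.

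All 3 tested netrin receptors fell, by different amounts, beside 37.8% lower over all tested genes. Unc5b, a repulsive netrin receptor also found in vessels, had 378, 381 and 384 CPM in CK and 147, 149 and 144 CPM in CYSP. It fell by 1.38 on the log2 scale (SE 0.0337, adjusted p = 4.18e-51 in edgeR), and in FPKM it was the most abundant guidance gene in CK and the fourth in CYSP. Neo1, neogenin, which binds netrins and RGM proteins, had 116, 113 and 109.9 CPM in CK and 101, 91.6 and 99.6 CPM in CYSP, a small difference with no overlap (log2 change -0.22 ± 0.0449 SE, adjusted p = 1.53e-05 in edgeR). Unc5c, a receptor of the developing cerebellum, had 16.96 to 18.8 CPM in CK and 13.2 to 14.5 CPM in CYSP (log2 change -0.38 ± 0.103 SE, adjusted p = 7.45e-04 in edgeR). The summed FPKM of the netrin receptors was 81.4 ± 0.151 in CK and 36.3 ± 0.219 in CYSP (SD, n = 3), while that of the netrin ligands was 5.30 ± 0.927 in CK and 15.2 ± 0.724 in CYSP. Dcc, the receptor of netrin attraction, had no count in CK and 2, 0 and 3 counts in the CYSP samples. Unc5a had 1 count in CK 1, 9 in CYSP 1 and 2 in CYSP 3, and Unc5d had none.

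Draxin had 8, 4 and 4 counts in the CK samples and 1718, 1554 and 1474 counts in the CYSP samples. These correspond to 0.451, 0.251 and 0.242 CPM in CK and to 104, 105 and 101 CPM in CYSP, so the groups lie far apart. The fitted log2 fold change was 8.31 (SE 0.128, adjusted p = 4.34e-65 in edgeR), a 317-fold increase that rests on 16 counts over the CK group. Draxin passed the filter on low counts through its CYSP samples, so these values describe the difference and are no separate support for it. Per length Draxin reached 16.2 ± 0.369 FPKM (SD, n = 3) in CYSP. In the order of FPKM it lay there beside Epha2 at 16.2 ± 0.579 and Efnb2 at 16.4 ± 2.21, from which its range did not separate, and above Ntn1 at 13.97 ± 0.482.

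Per length, the leading member differed between the groups in 4 of the 8 families of 2 or more genes: Efnb1 gave way to Efnb2, Epha3 to Epha2, Robo2 to Robo1 and Ntn4 to Ntn1, in every sample. The lead of Robo2 in CK was narrow, with Robo1 at 0.813 to 0.897 times its FPKM. In the other 4 families the leader was the same in all 6 samples: Efna5, Ephb4, Slit3 and Unc5b. The pairs were picked after their values were seen, so their ratios are given as a description without a test. Ligand sums rose for ephrin-A, from 14.3 ± 1.35 to 39.8 ± 2.54 FPKM (mean ± SD, n = 3), and for the Slits, from 87.9 ± 3.35 to 175 ± 4.59 FPKM. The ephrin-B sum went from 43.3 ± 2.00 to 25.3 ± 1.94 FPKM and the EphB sum from 24.9 ± 0.608 to 30.2 ± 0.524 FPKM. The length per read that the deposited FPKM imply was nearly constant for most members but varied between samples by 38.8% for Efna5, 23.6% for Epha7 and 15.8% for Robo2, so FPKM and CPM differences of these 3 genes are not interchangeable.

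**Figure D3:**
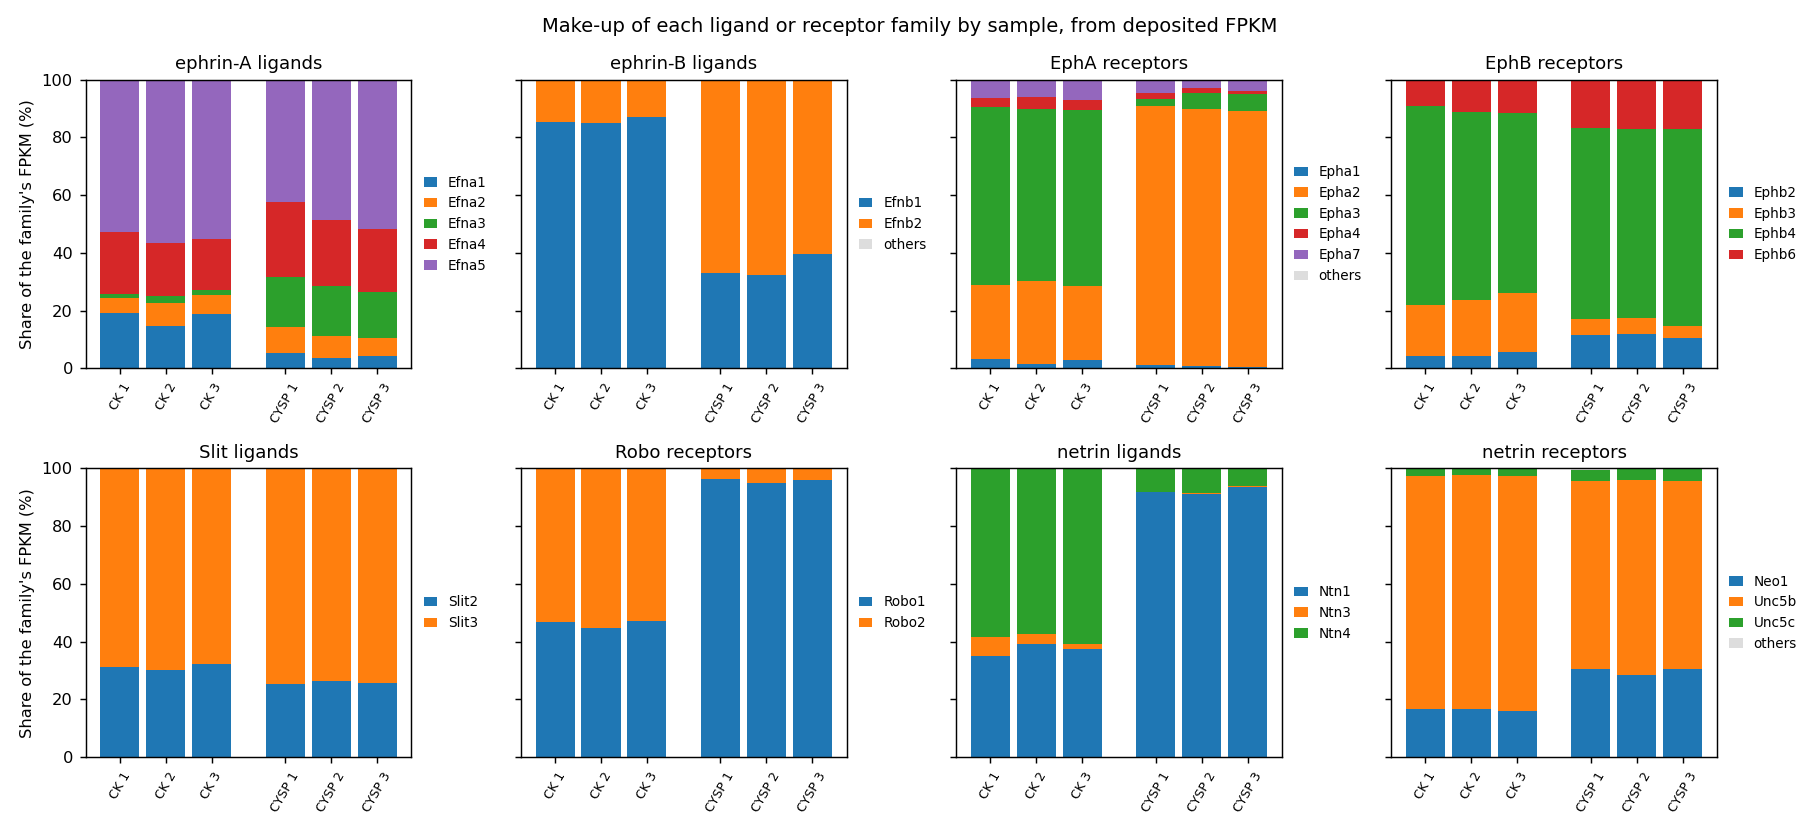
Share of each member in the summed deposited FPKM of its family, in percent, as stacked bars for each of the 6 samples. The leading member differs between CK and CYSP in the ephrin-B, EphA, Robo and netrin ligand panels, as for Robo1 at 46.3% in CK and 95.7% in CYSP, and is the same in the other 4 panels.

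Partners and effectors of these receptors, together with relatives of the cues such as the netrin-G genes, were taken from 3 lists with 57 genes. Of these, 55 were found and 45 tested. Among them 17 of the 45 rose and 17 fell, shares near the background of 38.2% higher and 37.8% lower over all tested genes. Their median log2 change was 0.02, beside 0.0046 over all tested genes. Of 16 tested Eph and ephrin effectors 4 rose and 6 fell. Grip1, a PDZ scaffold that binds ephrin-B, rose from 0.558 ± 0.0727 to 10.8 ± 1.17 CPM (SD over 3 samples), and Vav3, a guanine nucleotide exchange factor recruited by Eph receptors, from 2.72 ± 0.835 to 14 ± 1.63 CPM. Grip1 had 28 counts over the CK samples together. Vav2, the relative of Vav3, had a log2 fold change of 0.54. Kalrn, a further exchange factor, fell from 98.1 ± 3.31 to 37.3 ± 0.992 CPM, and the Rap and Ras GTPase-activating genes Sipa1l1 and Rasa1 had log2 fold changes of -1.05 and -0.95.

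Of 14 tested Slit-Robo partners 5 rose and 6 fell, with a median absolute log2 change of 0.44 beside 0.53 over all tested genes. Srgap2, a GTPase-activating protein bound by Robo, rose by 0.84 on the log2 scale and its relative Srgap1 fell by 0.65. Arhgap39, also a Robo-bound GTPase-activating protein, and Sdc1, a heparan sulfate carrier, had log2 fold changes of 0.51 and 0.48. Pak1, a kinase of the Rac pathway, fell from 122 ± 6.75 to 40.7 ± 2.88 CPM, and the actin regulator Cap1 had a log2 fold change of -0.69. In the netrin, neogenin and Unc5 list 8 of 15 tested genes rose and 5 fell. Over all tested genes 38.2% were higher and 37.8% lower. Adora2b, an adenosine receptor reported to bind netrin-1, rose from 2.55 ± 0.271 to 37.2 ± 0.682 CPM. Dapk1, a death-associated kinase that binds Unc5 receptors, rose from 6.64 ± 0.838 to 61.8 ± 2.57 CPM, and Ntng2, a lipid-anchored netrin-G, by 2.07 on the log2 scale. Trio and Src, effectors of Dcc, fell by 1.25 and 1.12, and Maged1, an adaptor of Unc5 receptors, by 0.72.

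**Figure D4:**
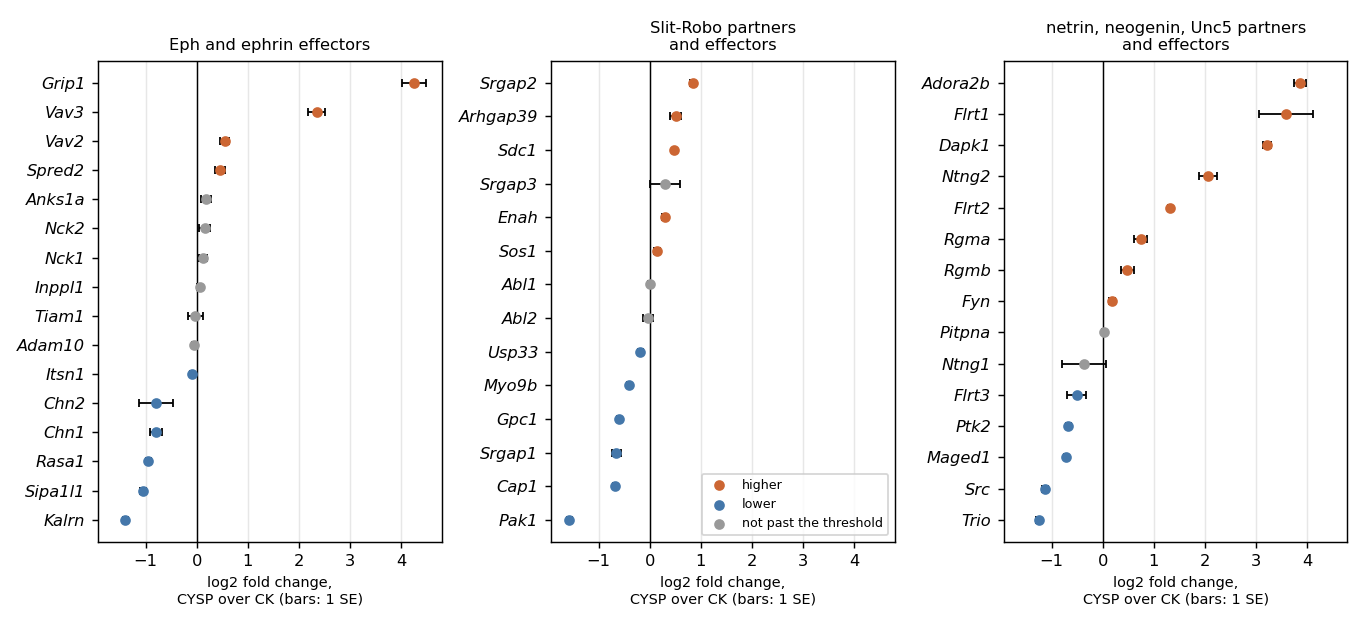
Log2 fold change of CYSP over CK, with bars of 1 SE, for the 45 tested partner, effector and related genes in 3 lists. The changes reach 4.25 for Grip1 and -1.58 for Pak1.

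The spread between samples was small, with a common biological coefficient of variation of 0.0393. When a coefficient of 0.2 was assumed instead, an alternative added with the data in view, 22 of the 25 called guidance genes kept their call and Ephb4, Neo1 and Unc5c lost it. With 0.4 assumed, 16 kept it, and Efna5, Epha4, Epha7, Ephb6, Slit2 and Slit3 were lost as well.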

How the data were processed

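Libraries were made from oligo(dT)-selected RNA (labels' protocols). The submitters' processing notes list the tools fastp 0.18.0, HISAT2, StringTie 1.3.1 and RSEM without saying what each did. Build, annotation and the use of strand in counting are not given in the sources, so antisense or overlapping genes may share reads. The table deposited by the authors holds raw read counts and FPKM per sample (per the file headers). Counts made by RSEM would be rounded estimates. The authors' mean FPKM per group, log2 fold change (of those means), p-value and adjusted p-value stand beside them, and the authors' test is not given.

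Samples were grouped by title. All genes with enough counts (filterByExpr) were fitted with edgeR 4.0.16 in R 4.3.3 (TMM scaling, robust dispersion, glmQLFit, glmQLFTest), and p-values were adjusted by Benjamini-Hochberg. CPM values are TMM-scaled. SE was derived from the fold change and its F statistic. The guidance genes, partner lists, markers, motifs and the rule for naming genes were chosen with earlier results of these data known. The rule gives every called guidance gene with a mean of at least 1 CPM in full, and from each partner list up to 3 called genes per direction with the largest change, a mean of at least 1 CPM and no overlap between groups. The 2 list genes that were not found are not analysed here, and 1 further list of effectors is not reported here. Alternatives were run with DESeq2 1.42.0, limma 3.58.1 and other settings of edgeR, and the procedure was tested on simulated counts. Far fewer genes were changed in the simulation than were called here, so it does not check scaling under changes this broad.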

Additional observations from a re-analysis of the deposited data

How the results depend on the processing

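No guidance gene changed direction under any of the 19 alternatives. All 25 calls were kept with DESeq2 size factors, upper quartile scaling, library size only, the DESeq2 Wald test and limma-voom, and without any single sample. The stricter filter of 50 counts in 3 samples left out Efna2 and Epha1, and limma with trend on log2(FPKM + 1) or log2(FPKM + 0.1) of genes with a mean of at least 0.5 FPKM left out Epha1 and Epha4. The other 23 calls were kept in each. Efna1 was called lower with upper quartile scaling, library size only and both FPKM fits. Without a filter Ntn3, Epha5 and Unc5a were called too. Same-numbered samples did not deviate together (correlations of deviations from -0.00885 to 0.0185), and not every sample correlated best with its own number. With the replicate number as a block, 14 guidance genes were higher and 11 lower, as without it.

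Tested with glmTreat against a log2 fold change of 1, 1504 of all genes were higher and 1217 lower, with 10 guidance genes higher and 6 lower, and 7 partner genes higher and 4 lower. The 9 guidance genes that lost their call there were Efna5, Epha4, Epha7, Ephb4, Ephb6, Slit2, Ntn4, Neo1 and Unc5c. With an assumed coefficient of variation of 0.2 the counts of higher and lower genes were 3102 and 2801 of all genes, 13 and 9 guidance genes, and 9 and 13 partner genes. With 0.4 they were 1496 and 1209 of all genes, 9 and 7 guidance genes, and 7 and 3 partner genes. Low counts limit Draxin in CK (16 counts), Efna3 in CK (31) and Epha1 in CYSP (21), and the 8 genes under the filter.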
